A study of Homo sapiens with 2 samples.

Results

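The tumour necrosis factor (TNF) superfamily ligands and receptors were examined in C4-2B cells, a human castration-resistant prostate cancer line, by RNA sequencing of 1 vehicle library and 1 library from cells treated with (R)-9b. Members were the protein-coding genes of the deposited count table with a TNFSF or TNFRSF number in their symbol, together with TNF, LTA, LTB, LTBR, FAS, FASLG, CD27, CD70, CD40, CD40LG and NGFR. The rule took 44 genes of 60671 in the table and used no measured value. They were 7 death receptors, 4 decoy receptors, 15 receptors that bind TRAF adaptors and 18 ligands. Both conditions came from the same unmodified cell line, and the labels give overnight treatment at 1 µM for (R)-9b, an inhibitor of the kinase ACK1 (TNK2), with no dose for vehicle. The labels name the cell type as breast cancer, whereas the study describes the line as a prostate cancer line. All 9 prostate luminal markers examined, KLK3 among them, were above 3 counts in both libraries, and the 4 breast markers summed to 12 counts for vehicle and 4 for (R)-9b.

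Ligands of this family are trimeric proteins, usually anchored in the membrane and sometimes shed from it, and each binds 1 or a few receptors. Death receptors carry a cytoplasmic death domain, through which FAS and the receptors for TRAIL (the ligand encoded by TNFSF10) recruit the adaptor FADD and caspase-8, while TNFRSF1A first recruits TRADD. Decoy receptors bind a ligand without passing on a death signal, and the remaining receptors recruit TRAF proteins that lead to NF-κB. In a tumour cell, these receptors are known as the route by which TNF, FAS ligand and TRAIL from immune cells can act on it, and several ligands of the family are costimulators of T cells.

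The vehicle library held 65207444 counts and the (R)-9b library 57653965. Mitochondrially encoded genes took 1.49% of counts in vehicle and 9.54% in (R)-9b, and the prostate markers summed to 5292 counts per 1000000 (CPM) in vehicle and to 10240 after treatment. (R)-9b was the higher library in both, and the part of either shift in the values below was not tested. Markers of T and NK cells summed to at most 10 counts in a library and those of B cells to 2, with CD3D, CD2 and MS4A1 at 0. Myeloid markers summed to 50 counts in vehicle and 58 in (R)-9b, with PTPRC at 0. Fibroblast markers summed to 1152 and 2061 counts, of which COL1A1 gave 1114 and 2004, and endothelial markers to 777 and 432, of which VWF gave 769 and 411.

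Levels are given as CPM after TMM scaling, and ratios as log2 of (R)-9b over vehicle with an exact 95% interval of the 2 counts. With 1 library per condition, these intervals cover counting error only and there was no replicate check, so no difference below was tested as an effect of treatment. A gene was called higher or lower where its ratio passed 1.5-fold and its interval lay wholly on the same side of 1. Of 23446 genes that reached 10 counts in the 2 libraries together, 14.9% were called higher and 13.4% lower. Among the 14791 protein-coding genes of that set, these shares were 13.9% and 12.6%. In such bulk libraries, fewer cells with a transcript and less of it per cell cannot be told apart.

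Promoter sequence is shown for 3 receptors whose counts are described next. TNFRSF21 was the death receptor called lower, and TNFRSF1A and LTBR are neighbours on chromosome 12 whose ratios had opposite signs. The stretches are those of the 250 bases before the RefSeq start (GRCh38.p14) that lie outside every exon of GENCODE 29, written on the gene's strand from upstream to downstream. They are chr6:47309906-47310155 on the minus strand for TNFRSF21, chr12:6342115-6342326 on the minus strand for TNFRSF1A and chr12:6383912-6384032 on the plus strand for LTBR. Capitals mark the GC box (GGGCGG, read on the other strand) in TNFRSF21 and LTBR, and the CCAAT box, also read on the other strand, in TNFRSF1A.
TNFRSF21: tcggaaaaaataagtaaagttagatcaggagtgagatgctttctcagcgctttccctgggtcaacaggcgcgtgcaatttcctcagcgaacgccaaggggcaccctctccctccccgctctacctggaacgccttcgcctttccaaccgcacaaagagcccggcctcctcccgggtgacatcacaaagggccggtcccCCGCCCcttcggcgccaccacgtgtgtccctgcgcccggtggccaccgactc
TNFRSF1A: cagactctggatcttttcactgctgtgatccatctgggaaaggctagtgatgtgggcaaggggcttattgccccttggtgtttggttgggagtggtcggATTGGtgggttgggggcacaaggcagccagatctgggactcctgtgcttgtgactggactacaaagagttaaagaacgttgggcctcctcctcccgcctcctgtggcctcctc
LTBR: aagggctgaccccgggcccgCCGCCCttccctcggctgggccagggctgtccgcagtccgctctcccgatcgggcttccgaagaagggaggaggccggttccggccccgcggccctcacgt

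The windows differed in composition. Over the full 250 bases, LTBR had 74.8% G and C with 27 CG dinucleotides and 4 GC boxes, whereas TNFRSF1A had 56.8% with 4 CG dinucleotides and no GC box. TNFRSF21 lay between them, with 62.0% and 20 CG dinucleotides. On either strand, a GC box was found in 42.6% of 35116 RefSeq promoters and a CCAAT box in 32.0%. The AP-1 letters TGANTCA were in 6.57% of promoters. Among members called higher or lower that had a window, they were in those of CD27, TNFRSF9 and TNFSF15. They were also in a window of FAS and in those of TNFSF14, neither of which was called. TNFRSF10C, TNFRSF4 and TNFSF8, also called, had no window to search. No GENCODE start lay close to the RefSeq start of CD27 or TNFSF15. Whether called members carry these letters more often than other genes was not tested. TTGCATCA is a composite element known to bind CHOP with ATF4. It was in 0.772% of promoters and in none of the 37 entries found for 28 of the 44 members. These 28 do not include TNFRSF10A, TNFRSF10B, TNFRSF10C or TNFRSF10D, whose promoters were not searched. A match describes the letters in this window only.

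Of the 44 members, 32 reached that minimum of 10 counts. Among these 32, 9 (TNFRSF25, TNFRSF10C, TNFRSF11A, TNFRSF18, CD27, TNFRSF4, TNFSF15, LTB and TNFSF8) were called higher in (R)-9b, 4 (TNFRSF21, TNFRSF8, TNFRSF9 and TNFSF4) were called lower and 19 neither, beside the 14.9% and 13.4% given above for all genes. Of the 9 higher calls, 5 (TNFRSF10C, CD27, TNFRSF4, LTB and TNFSF8) ended when every count was halved, an alternative for a table whose low counts were even in 16 of 24 entries of members with 1 to 20 counts. The median log2 ratio was 0.29 over the 32 members and -0.0049 over all genes tested.

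**Figure D1:**
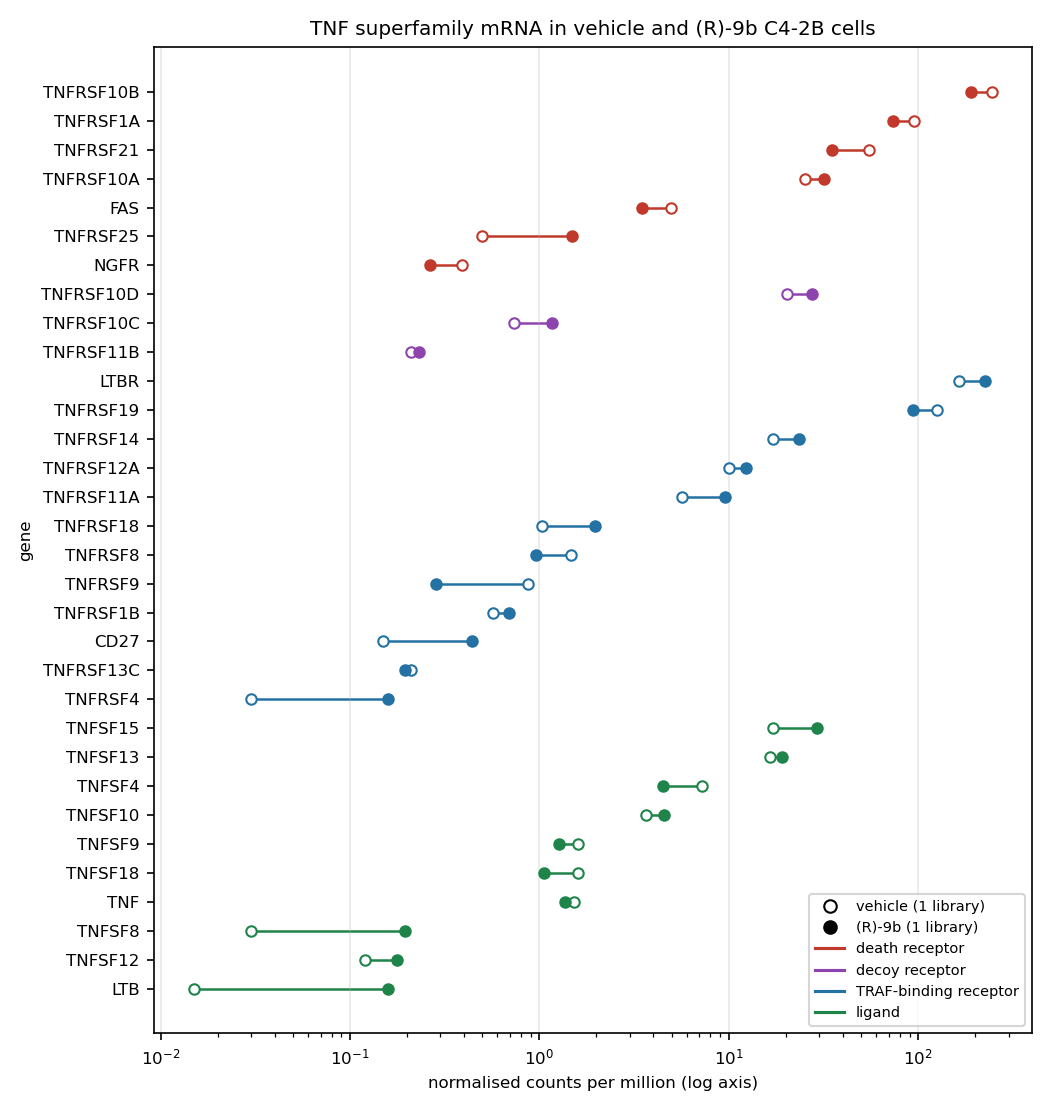
Normalised CPM (log axis) of the 32 members with at least 10 counts, by role, with open points for the vehicle library and filled points for the (R)-9b library. The filled points of TNFRSF10B, TNFRSF1A and TNFRSF21 sit left of their open points, and that of LTBR sits to the right.

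In the gene counts, the death receptors had a negative median ratio and the rest of the family a positive one. Of the 7, TNFRSF10B, TNFRSF1A, TNFRSF21 and FAS had intervals wholly below 0, TNFRSF10A and TNFRSF25 wholly above 0, and the interval of NGFR included 0. Only TNFRSF21 passed 1.5-fold downwards and only TNFRSF25 upwards. Their median log2 ratio was -0.38 (range -0.64 to 1.59), beside 0.32 (range -1.62 to 2.11) over the 25 other members with enough counts. Of those 25, 14 had intervals above 0 and 5 below, where of the 14791 protein-coding genes tested 5243 lay above and 5474 below. With the deposited transcript table summed per gene symbol, an alternative added after the values were seen, the death receptor median was -0.35 over 7 genes and that of the other members -0.10 over 21. The negative median of the death receptors thus held in both tables, and the positive median of the other members did not. The summed level of the 7 death receptors was 427 CPM for vehicle and 335 for (R)-9b.

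TNFRSF10B, the TRAIL receptor DR5, was the most abundant member per kilobase of exon in both libraries, with 16355 counts in vehicle and 10674 in (R)-9b. Its level was 246 and 189 CPM, a log2 ratio of -0.38 (95% interval -0.41 to -0.34). On that per-length scale, it stood at the 94th percentile of protein-coding genes tested in vehicle and at the 92nd after treatment. TNFRSF1A, the receptor for soluble TNF, had 6357 and 4180 counts, a log2 ratio of -0.37 (-0.42 to -0.31). For both genes the interval excluded 0 and the difference was short of 1.5-fold.

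TNFRSF21 (DR6), a death receptor known mainly from neurons and lymphocytes, had 3646 counts in vehicle and 1986 in (R)-9b. The log2 ratio of -0.64 (-0.72 to -0.56) made it the only death receptor called lower, and its value in the transcript table was -0.63. FAS, which binds FAS ligand, was less abundant per kilobase, with 328 and 197 counts and a log2 ratio of -0.50 (-0.76 to -0.24). Its value in the transcript table was -0.33, with a wider interval of -0.73 to 0.07. Exons of ACTA2 on the opposite strand cover 8.93% of FAS exon bases, and the strand setting of the counting is not given in the sources used here. NGFR, the low-affinity neurotrophin receptor, was near the limit of these data with 26 and 15 counts, and its interval included 0 (-1.58 to 0.41).

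TNFRSF10A, the other death-inducing TRAIL receptor (DR4), went the other way from TNFRSF10B. It had 1691 counts in vehicle and 1789 in (R)-9b, a log2 ratio of 0.32 (0.22 to 0.42). TNFRSF25 (DR3), the receptor of TNFSF15 and a costimulator of T cells, was called higher with 33 and 84 counts. Its log2 ratio was 1.59 (0.99 to 2.21), at a level of 0.496 CPM in vehicle and 1.49 after treatment. Exons of neighbouring genes cover 11.4% of its exon bases.

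**Figure D2:**
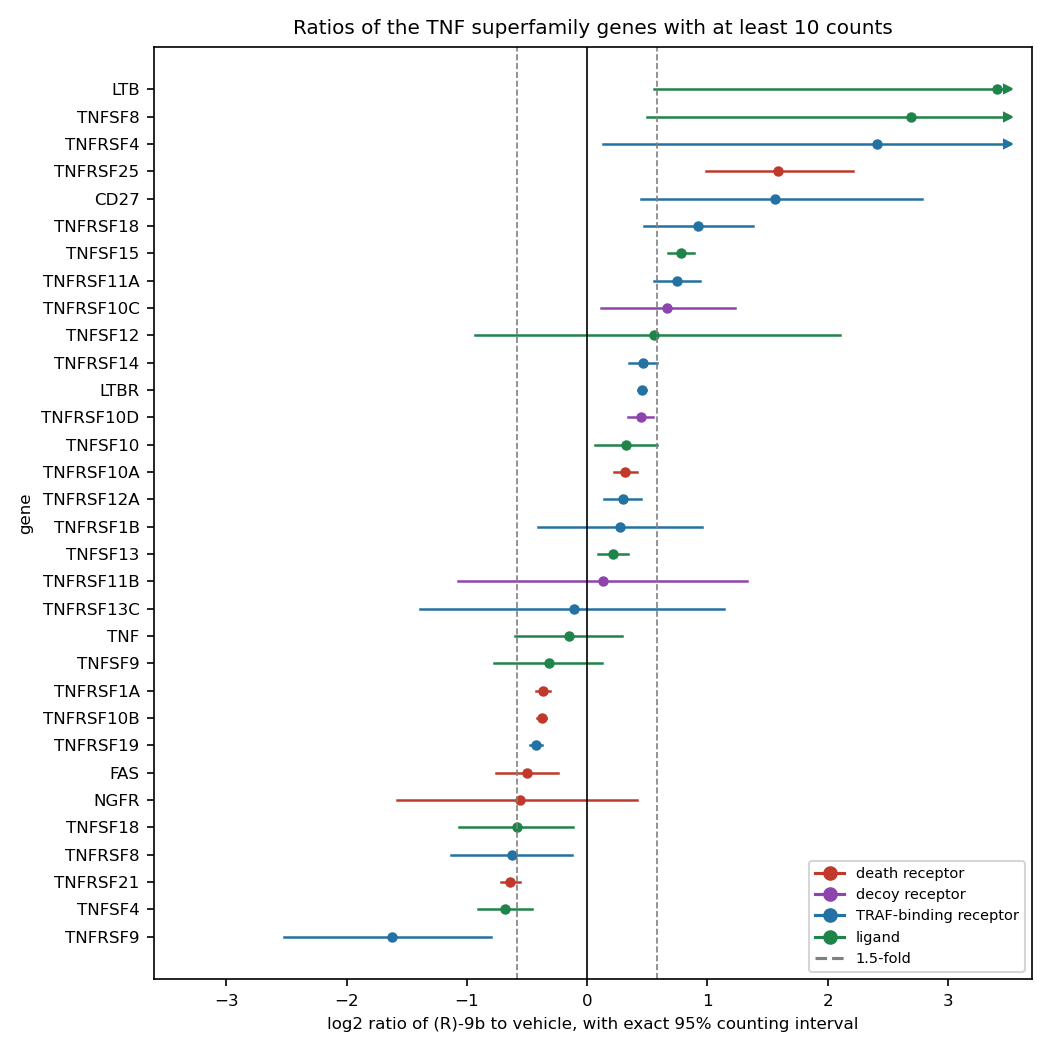
Log2 ratio of (R)-9b to vehicle for the 32 members with at least 10 counts, with exact 95% counting intervals, coloured by role, and dashed lines at 1.5-fold. TNFRSF9 is lowest at -1.62, most death receptors lie between -0.64 and -0.37, and the 3 widest intervals at the top belong to genes with at most 2 counts in vehicle.

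The 4 cell-surface TRAIL receptors, which lie next to each other within 204994 bases, did not move together. The decoys TNFRSF10D, with a truncated death domain, and TNFRSF10C, a lipid-anchored form, were both higher in (R)-9b. TNFRSF10D had 1346 counts in vehicle and 1554 in (R)-9b, a log2 ratio of 0.45 (0.34 to 0.55). TNFRSF10C had 49 and 66 counts and was called higher at 0.67 (0.11 to 1.23). Exons of other genes cover 39.3% of TNFRSF10C exon bases, where reads cannot be assigned without ambiguity.

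Shares of counts within a library do not depend on scaling between libraries, although longer transcripts give more counts. TNFRSF10B made up 84.1% of the counts of these 4 genes in vehicle (exact binomial interval 83.6% to 84.6%) and 75.8% in (R)-9b (75.1% to 76.5%). The share of TNFRSF10A was 8.70% and 12.7%. That of the decoys TNFRSF10C and TNFRSF10D together was 7.18% (6.82% to 7.55%) and 11.5% (11.0% to 12.04%). None of these pairs of intervals overlapped, so the make-up of TRAIL receptor mRNA differed between the libraries by more than counting error. TNFRSF11B, a secreted decoy of RANKL and TRAIL known as osteoprotegerin, had 14 and 13 counts. TNFRSF6B, a secreted decoy of FAS ligand, had 0 counts in both libraries, but exons of a readthrough gene cover 100% of its exon bases, so its level cannot be read from these counts.

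**Figure D3:**
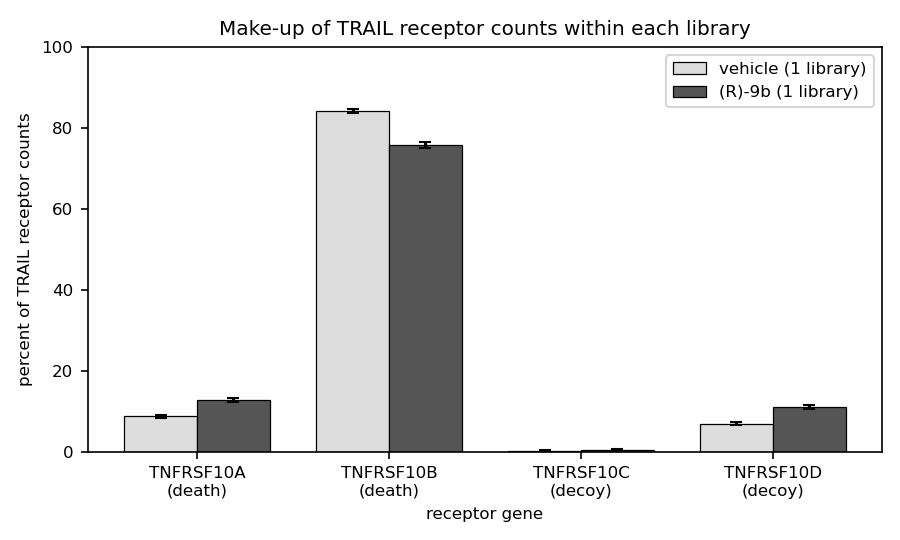
Percent of TRAIL receptor counts taken by each of 4 receptors in the vehicle and the (R)-9b library, with exact 95% binomial intervals. TNFRSF10B has 84.1% in vehicle and 75.8% in (R)-9b, and the other 3 receptors have larger shares in (R)-9b.

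The same comparison was made over all receptors. Death receptors held 55.0% of receptor counts in vehicle (54.6% to 55.5%) and 45.7% in (R)-9b (45.2% to 46.2%). TNFRSF10B alone gave 57.5% of death receptor counts in vehicle. Without TNFRSF10B, death receptors held 34.2% of the remaining receptor counts in vehicle and 26.8% in (R)-9b. The summed share of the other 6 genes was thus also lower. Most of their counts came from TNFRSF1A (6357 and 4180) and TNFRSF21 (3646 and 1986), while TNFRSF10A and TNFRSF25 had higher counts in (R)-9b. The share also depends on the other receptors, of which LTBR had 10938 and 12731 counts.

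**Figure D4:**
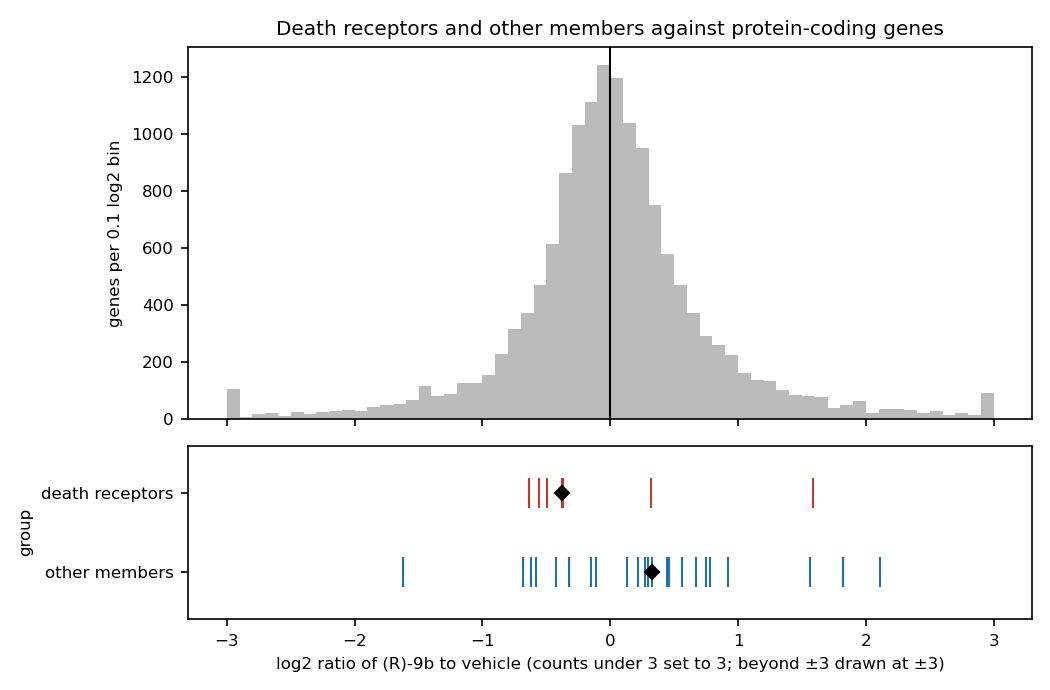
Upper panel, number of protein-coding genes per 0.1 bin of log2 ratio, with a line at their median. Lower panel, the log2 ratio of each death receptor and each other member with at least 10 counts, with diamonds at the medians of -0.38 and 0.32.

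Receptors that bind TRAF adaptors were divided. LTBR, the receptor of lymphotoxin β and LIGHT that feeds the alternative NF-κB pathway, was the most abundant of them per kilobase, with 10938 counts in vehicle and 12731 in (R)-9b. Its log2 ratio of 0.46 (0.42 to 0.49) was short of 1.5-fold. Per kilobase of exon, LTBR stood at 26.2 CPM in vehicle, under TNFRSF10B at 47.6, and at 35.9 CPM in (R)-9b, close to TNFRSF10B at 36.6. Of the counts of the chromosome 12 neighbours TNFRSF1A and LTBR, TNFRSF1A took 36.8% in vehicle (36.0% to 37.5%) and 24.7% in (R)-9b (24.1% to 25.4%). TNFRSF19 (TROY) was the abundant exception among these receptors, with 8387 and 5286 counts and a log2 ratio of -0.43 (-0.48 to -0.38).

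4 further receptors had intervals above 0. TNFRSF14 (HVEM), the receptor of LIGHT and BTLA, had 1140 and 1333 counts, a log2 ratio of 0.46 (0.35 to 0.58). TNFRSF12A, the TWEAK receptor, had 671 and 699 counts and a log2 ratio of 0.30 (0.14 to 0.45). Both were short of 1.5-fold. TNFRSF11A, the receptor RANK of bone and immune biology, was called higher with 379 and 539 counts, at 0.75 (0.55 to 0.94), but its value in the transcript table was 0.25 (-0.11 to 0.61). TNFRSF18 (GITR), a T cell costimulatory receptor, was called higher with 69 and 111 counts, at 0.92 (0.48 to 1.38), and the transcript table gave 1.07.

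The receptors called lower in this class are both known from activated lymphocytes. TNFRSF9 (4-1BB, CD137) had 58 counts in vehicle and 16 in (R)-9b, a log2 ratio of -1.62 (-2.52 to -0.80), and the transcript table gave -1.56. TNFRSF8 (CD30) had 98 and 54 counts, at -0.62 (-1.13 to -0.13), and its call ended in the transcript table, at -0.27, and with counts halved. TNFRSF1B, the second TNF receptor, had 38 and 39 counts, and TNFRSF13C, the BAFF receptor, had 14 and 11. Neither of these last genes differed by more than counting error.

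The calls on CD27 and TNFRSF4 rest on few counts. CD27, the receptor of CD70, had 10 counts in vehicle and 25 in (R)-9b, a log2 ratio of 1.56 (0.45 to 2.78). In the transcript table it had 8 and 4 estimated counts, the opposite direction, all on the noncoding CD27-202. Exons of other genes, mainly CD27-AS1 with 1111 and 1195 counts, cover 39.1% of CD27 exon bases, and with the strand setting not given the origin of these reads cannot be told apart. TNFRSF4 (OX40) had 2 and 9 counts, a 5.31-fold ratio with an interval of 1.10 to 50.5. CD40 had 2 counts in each library, and the B cell receptors TNFRSF13B and TNFRSF17 had 0.

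Ligands took a small part of the counts of the family, 5.99% in vehicle and 7.79% in (R)-9b. TNFSF15 (TL1A), the ligand of TNFRSF25, had the most counts of any ligand, although TNFSF13 was the higher per kilobase of exon in both libraries, at 7.26 CPM beside 2.16 for TNFSF15 in vehicle and 8.44 beside 3.71 in (R)-9b. TNFSF15 had 1136 counts in vehicle and 1653 in (R)-9b and was called higher at a log2 ratio of 0.78 (0.67 to 0.89). The transcript table gave 0.75, and the share of TNFSF15 in ligand counts was 34.5% (32.9% to 36.2%) and 47.3% (45.6% to 48.9%). TNFSF13 (APRIL), a survival factor of plasma cells, had 1101 and 1084 counts, a log2 ratio of 0.22 (0.09 to 0.34). Exons of the readthrough gene TNFSF12-TNFSF13, itself listed at 0 counts, cover 55.5% of TNFSF13 exon bases.

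The ligands TNFSF4 and TNFSF18, next to each other on chromosome 1, were both lower. TNFSF4 (OX40 ligand) had 478 counts in vehicle and 253 in (R)-9b and was called lower at a log2 ratio of -0.68 (-0.91 to -0.46). TNFSF18 (GITR ligand) had 106 and 60 counts, at -0.58 (-1.07 to -0.11), just short of 1.5-fold in this scaling. Scaling by library totals (-0.64) or by DESeq2 size factors (-0.60), and the transcript table (-0.97), put TNFSF18 past the call. With counts halved, the interval of TNFSF18 included 0 (-1.28 to 0.09). TNFSF9 (4-1BB ligand), with 106 and 72 counts, and TNF, with 101 and 77, had intervals that included 0 (-0.77 to 0.13 and -0.60 to 0.29).

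TNFSF10, which encodes TRAIL, had 242 counts in vehicle and 257 in (R)-9b, a log2 ratio of 0.32 (0.07 to 0.58). With counts halved, its interval included 0 (-0.05 to 0.69). TNFSF12 (TWEAK) had 8 and 10 counts. LTB, which pairs with LTA, had 1 count in vehicle and 9 in (R)-9b, a 10.6-fold ratio with an interval of 1.47 to 465. TNFSF8 (CD30 ligand), the neighbour of TNFSF15 on chromosome 9, had 2 and 11 counts, a 6.49-fold ratio (1.42 to 60.2). Both calls rest on at most 11 counts and ended when counts were halved. LTA had 3 and 6 counts, CD70 2 and 4, TNFSF13B (BAFF) 2 and 2, and TNFSF11 (RANKL) 2 and 0. FASLG, CD40LG and TNFSF14 had 0 counts in both libraries, where a count of 0 allows up to 0.0451 CPM for vehicle and 0.0531 for (R)-9b, for counting error only.

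Set side by side, ligands and their receptors followed no common direction. TNFSF15 and TNFRSF25 were both called higher. TNFSF18 was lower, though short of a call and not past counting error with counts halved, while TNFRSF18 was called higher. TNFSF4 was lower while TNFRSF4 was higher on 2 and 9 counts. The lower TNFRSF9 stood beside a TNFSF9 whose interval included 0. TNFSF10 and TNFRSF10A were slightly higher and TNFRSF10B lower, though the interval of TNFSF10 included 0 with counts halved. TNFSF8 was called higher on 2 and 11 counts and TNFRSF8 lower on 98 and 54, and both calls ended with counts halved. FAS was expressed without detectable FASLG mRNA, and TNFRSF14 without TNFSF14. LTBR was expressed without TNFSF14 and with 1 and 9 counts of LTB, and TNFRSF11A with at most 2 counts of TNFSF11.

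**Figure D5:**
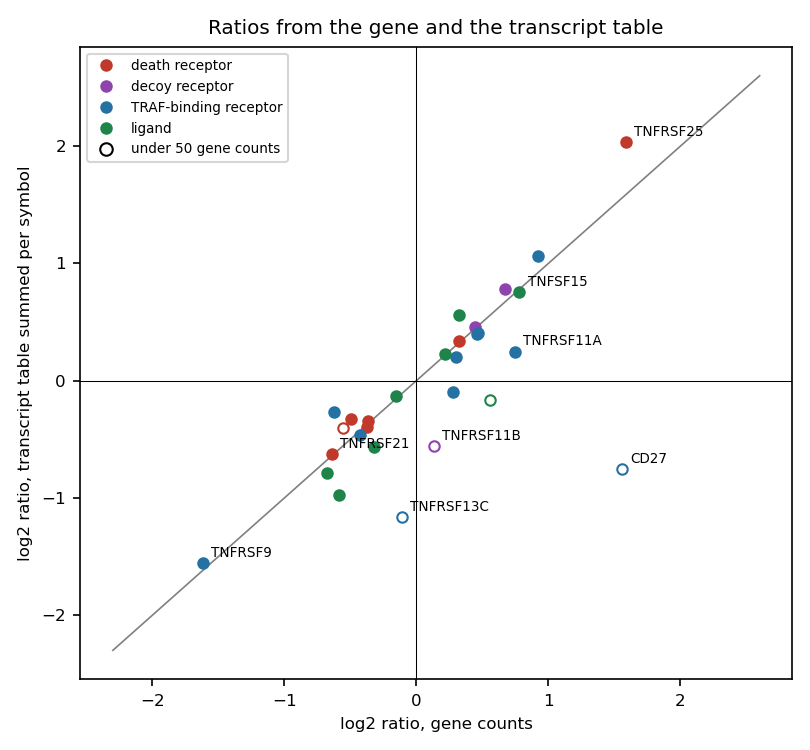
Log2 ratio from the deposited gene counts (x axis) and from the deposited transcript table summed per symbol (y axis) for the members with a ratio in both, open points for genes under 50 gene counts over both libraries, and the line of equality. TNFRSF9, TNFRSF21, TNFSF15 and most abundant members lie near the line, while CD27 lies at 1.56 and -0.75 and TNFRSF11A at 0.75 and 0.25.

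Downstream of the receptors, the adaptors of the death-inducing complexes differed from vehicle by less than 1.5-fold. FADD had 912 counts in vehicle and 765 in (R)-9b (log2 ratio -0.02, interval -0.16 to 0.12). TRADD had 1335 and 1326 (0.23, interval 0.12 to 0.34). The initiator caspase gene CASP8 had 1729 and 1206 counts (-0.28, interval -0.39 to -0.17), and CFLAR, whose product c-FLIP restrains caspase-8, had 2399 and 2401 (0.24). RIPK1 stood at -0.26 and TRAF2 at 0.13. All 6 were short of 1.5-fold, and all but FADD had intervals that excluded 0 in this scaling. That of TRAF2 (0.04 to 0.23) would include 0 with library totals, which move every log2 ratio by -0.06.

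Over the list of 40 genes of receptor signalling complexes, 39 had enough counts, and 4 were called higher and 2 lower, beside the 14.9% and 13.4% of all genes. The higher genes were MLKL, the effector of necroptosis, with 349 and 640 counts (1.11), the NF-κB feedback genes BIRC3 with 540 and 880 (0.94) and TNFAIP3 with 755 and 1101 (0.78), and RNF31 of the linear ubiquitin ligase, with 5 and 37. The lower genes were DAP3 (-0.63), better known as a mitochondrial ribosomal protein, and the FAS-associated factor FAF1 (-0.59). The list's median log2 ratio was 0.18.

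Superfamily genes whose symbols fall outside the rule were read separately, listed with the adaptor gene EDARADD, and 6 of the 7 listed had enough counts. Of these, 1 was called higher and 2 lower, beside the 14.9% and 13.4% of all genes. EDA, the ligand ectodysplasin, was called lower with 2919 and 1458 counts (-0.76), as was RELL1 with 815 and 430 (-0.68). EDAR, the ectodysplasin receptor, was called higher with 8 and 19 counts, a call that ended with counts halved. Of 8 proteases that process ligands or shed receptors, 3 were called higher and 1 lower, beside the same shares of all genes. ADAM17, the TNF convertase, was called lower with 1372 and 709 counts (-0.71). ADAM8, with 65 and 324 counts (2.56), MMP7, with 8 and 40 (2.56), and SPPL2B (0.85) were called higher, and ADAM10 was at 0.02.

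Among transcription factors known to act on TRAIL receptor and FAS genes, DDIT3 and ATF4 were called lower. DDIT3, which encodes the stress factor CHOP, a known activator of TNFRSF10B, had 17941 counts in vehicle and 737 in (R)-9b, a log2 ratio of -4.37. ATF4, which acts upstream of DDIT3, was at -1.17. The difference in DDIT3 stood beside that of -0.38 in TNFRSF10B, and the part of one in the other was not tested.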

How the data were processed

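The gene table used here, deposited by the authors, holds raw counts of uniquely aligned, unambiguous reads per gene from poly-A selected, paired-end libraries aligned to GRCh38 with STAR. The methods and the submitters' processing notes name different STAR versions, and the notes also list featureCounts 1.4.6-p5 and Salmon 0.8.2. CPM values deposited by the authors are counts divided by the library total, and were used as an alternative. Estimated counts per transcript in a further table deposited by the authors were summed per gene and rounded, also as an alternative.

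Of 60871 lines, 200 repeated a gene and were dropped. Counts were scaled by TMM (edgeR 4.0.16, R 4.3.3). Ratios have exact (Clopper-Pearson) 95% intervals of 2 counts (scipy 1.17.1). Their code was checked on simulated independent counts, as the intervals assume. That check covers neither reads counted once per mate nor TMM scaling. No test of conditions was possible with 1 library each. For medians, counts under 3 were set to 3, and a gene needed 10 counts over both libraries. Lengths, overlaps and neighbours came from GENCODE 29, promoters from RefSeq. Figures used matplotlib 3.10.9.

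Every member with 10 counts was named. Of the pathway lists, called genes were named, at most 4 per direction by ratio, plus CASP8, FADD, CFLAR, TRADD, RIPK1 and TRAF2. ADAM10 and the markers were named after their values were seen. Some genes of these lists are not reported here. Members and lists were chosen with earlier results of these data known.

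Alternatives were scaling by library totals, DESeq2 1.42.0 size factors, the upper quartile or TMM without mitochondrial genes, the deposited CPM, counts halved, the transcript table per identifier or per symbol, minimums of 1 and 50 counts, a 2-fold threshold and a whole interval past 1.5-fold.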

Additional observations from a re-analysis of the deposited data

How the results depend on the processing

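Of the 32 members, 9 were called higher and 4 lower. The higher count was 4 with counts halved, 5 with the transcript table, 4 with that table per symbol, 5 with a minimum of 50 counts, 5 at 2-fold, and 2 where the whole interval had to pass 1.5-fold. The lower count was 1 at 2-fold and 1 with the whole interval (TNFRSF9 in both). Higher calls made up 69.2% of calls in the main scaling, on 9 higher and 4 lower, and 64.3% to 69.2% under the other scalings. They made up 57.1% with counts halved and 50% with the transcript table per symbol. All genes tested gave 3495 higher and 3135 lower calls in the main scaling. These were 3161 and 3562 with library totals, and 2745 and 2469 with counts halved. Over all genes, the share called higher was 11.7% with counts halved, 14.4% with the transcript table, 13.9% with a minimum of 50 counts, 9.41% at 2-fold and 8.71% with the whole interval, and the share called lower was 7.52% at 2-fold and 7.74% with the whole interval. The 4 of 31 members called higher with counts halved were near that share of all genes. The death receptor median of -0.38 was -0.44 with library totals and -0.44 with the deposited CPM, since library totals move every log2 ratio by -0.06. The other members' median of 0.32 was 0.0502 with the transcript table and -0.10 with that table per symbol, and the cause was not tested. CD27 reversed to -0.75 with the transcript table, per identifier or per symbol, and the cause was not tested. TNF reversed to 3.12 per identifier, because its estimates are split over identifiers of the same symbol, and was -0.13 per symbol. The alternative per symbol was chosen after seeing the data. No paired analysis was possible because there was 1 library per condition and no result comes from a test. Depth limits NGFR, TNFRSF11B, TNFRSF13C and TNFSF12, each under 50 counts over both libraries, whose intervals include 0.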

Other observations

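The transcript table lists some members under several gene identifiers with 1 symbol. The estimates of TNFRSF14, 499 in vehicle and 558 in (R)-9b, are all under an identifier that the gene table does not list, and its usual identifier has 0 in both libraries. The estimates of TNF are 43.0 in vehicle under one identifier, and 11.3 and 21.7 in (R)-9b under another pair. Summed per symbol, the log2 ratio of TNFRSF14 was 0.41 and that of TNF -0.13, close to 0.46 and -0.15 from the gene counts. A reading of the transcript table by gene identifier would thus list TNFRSF14 as absent and TNF as present in (R)-9b only.

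The main transcripts of TNFRSF10B and TNFRSF1A took similar shares in both libraries. TNFRSF10B-201 took 82.7% of TNFRSF10B estimates in vehicle and 83.9% in (R)-9b, and TNFRSF1A-201 took 72.2% and 75.2%. Minor transcripts differed more in proportion, in both directions. TNFRSF1A-205 took 7.7% in vehicle and 3.35% in (R)-9b, and the retained-intron LTBR-204 took 0.232% and 1.00%. For TNFSF10, the share of TNFSF10-201 was 59.4% in vehicle and 45.5% in (R)-9b, on 82 and 102 estimated counts. These are model estimates from 1 library each, with no error given.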
